A study of Homo sapiens with 54 samples.

Results

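POLR3C regions that carried no POLR3A were the larger part of the places where the polymerase III subunit POLR3C was called in vehicle-treated T47D cells. They were chosen by the peak lists themselves: a region was kept if it lay on chromosomes 1 to 22 or X in the vehicle POLR3C list and shared no base with a POLR3A region of either treatment. Of 666 vehicle POLR3C regions on those chromosomes, 500 (75.1%) met that rule and 166 did not. The values behind the choice, POLR3C and POLR3A calls, are given below as a description only, and the comparisons rest on the other lists and on gene positions. The 16 lists of the series held 520465 regions in all.

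The study profiled T47D, a human luminal breast cancer cell line that expresses the oestrogen and progesterone receptors, by chromatin immunoprecipitation and sequencing (ChIP-seq). Cells received ethanol as vehicle or R5020, a synthetic progestin, for 1 h. Antibodies were directed at POLR3A, at POLR3C and at the paralogs POLR3G and POLR3GL, all of them polymerase III subunits, at the progesterone receptor (PR), the initiation factor Brf1, the repressor Maf1, and histone H3 acetylated at lysine 27 (H3K27Ac), a mark of active promoters and enhancers. Each antibody and treatment had 3 labelled libraries and a single deposited peak list, so no spread between replicates exists for any value below. All cells carried the same genotype, and no allele or agent other than ethanol and R5020 separates the groups. Groups were taken from the sample titles. For POLR3C, 2 of the 3 libraries titled R5020 carried an ethanol treatment tag, as did 1 of the POLR3G libraries and 1 of the POLR3GL libraries, so differences between the treatments in those lists cannot be read as an effect of hormone. All 9 luminal marker genes examined, among them KRT8, ESR1, PGR and GATA3, had an H3K27Ac region within 1 kb of an end in both treatments. KRT5 and KRT14, keratins of basal cells, had none in either.

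RNA polymerase III makes transfer RNAs, 5S ribosomal RNA, U6 and other short RNAs. POLR3A is its largest, catalytic subunit, while POLR3C forms a small subcomplex with POLR3F and either POLR3G or POLR3GL that takes part in initiation, and Brf1 belongs to the factor that places the enzyme at most of these genes. Most spliceosomal snRNAs (U1, U2, U4 and U5) and the U3 snoRNA are made by polymerase II instead, from promoters that share an upstream element with those of U6.

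The promoters beneath the strongest of these regions show what kind of sequence they occupy. Of the 12 regions with the highest -log10 q, 9 covered a RefSeq promoter window of a protein-coding gene, and in 7 of these the POLR3C summit fell within the 250 bases upstream of the start site, which are printed here on the gene's own strand (RefSeq, GRCh38.p14, 5′ to 3′). Capitals mark matches, read on either strand, to the short motifs searched. Found among them were the GC box with the letters GGGCGG, the CCAAT box, the TATA box with the letters TATAAA, the steroid receptor half-element with the letters TGTTCT, and the cyclic AMP element with the letters TGACGTCA. PRKCI lies at chr3:170222174-170222423 (+), PMVK at chr1:154936720-154936969 (-), FRAT1 at chr10:97319021-97319270 (+), HHIPL1 at chr14:99604288-99604537 (+), GALNT10 at chr5:154190483-154190732 (+), LSR at chr19:35248752-35249001 (+) and FOS at chr14:75278578-75278827 (+).
PRKCI: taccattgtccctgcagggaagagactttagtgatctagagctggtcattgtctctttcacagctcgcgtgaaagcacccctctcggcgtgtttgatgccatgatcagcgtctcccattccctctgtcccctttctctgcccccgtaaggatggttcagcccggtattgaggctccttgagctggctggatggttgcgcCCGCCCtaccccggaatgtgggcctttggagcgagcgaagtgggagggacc
PMVK: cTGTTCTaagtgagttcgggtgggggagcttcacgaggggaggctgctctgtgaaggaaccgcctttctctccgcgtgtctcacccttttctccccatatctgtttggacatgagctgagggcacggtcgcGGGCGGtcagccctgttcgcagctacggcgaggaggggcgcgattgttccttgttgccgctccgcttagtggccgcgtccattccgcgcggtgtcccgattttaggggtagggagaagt
FRAT1: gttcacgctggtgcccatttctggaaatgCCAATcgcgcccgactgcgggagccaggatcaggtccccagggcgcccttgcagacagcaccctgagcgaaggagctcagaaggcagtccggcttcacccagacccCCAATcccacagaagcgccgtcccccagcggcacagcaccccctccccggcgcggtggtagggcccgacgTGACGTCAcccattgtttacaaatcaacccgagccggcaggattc
HHIPL1: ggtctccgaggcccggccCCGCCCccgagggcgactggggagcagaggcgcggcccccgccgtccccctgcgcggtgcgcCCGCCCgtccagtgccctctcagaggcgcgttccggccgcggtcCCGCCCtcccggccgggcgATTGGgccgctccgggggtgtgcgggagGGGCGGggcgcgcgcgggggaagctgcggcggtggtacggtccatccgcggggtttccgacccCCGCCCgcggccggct
GALNT10: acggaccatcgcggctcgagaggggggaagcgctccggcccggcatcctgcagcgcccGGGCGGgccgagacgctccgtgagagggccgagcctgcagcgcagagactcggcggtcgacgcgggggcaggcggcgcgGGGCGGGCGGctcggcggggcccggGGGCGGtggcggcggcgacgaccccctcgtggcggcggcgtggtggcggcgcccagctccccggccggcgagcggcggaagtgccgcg
LSR: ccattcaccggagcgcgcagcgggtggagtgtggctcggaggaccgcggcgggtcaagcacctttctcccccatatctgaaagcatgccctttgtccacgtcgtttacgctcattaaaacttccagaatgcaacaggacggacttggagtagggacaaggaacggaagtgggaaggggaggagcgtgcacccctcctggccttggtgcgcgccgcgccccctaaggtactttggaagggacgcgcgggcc
FOS: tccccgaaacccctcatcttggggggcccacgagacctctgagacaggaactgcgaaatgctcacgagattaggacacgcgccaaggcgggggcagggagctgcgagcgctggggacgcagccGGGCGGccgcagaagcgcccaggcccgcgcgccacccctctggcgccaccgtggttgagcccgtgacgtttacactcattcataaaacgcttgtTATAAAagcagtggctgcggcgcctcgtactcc
GC content of these stretches ran from 58% in PRKCI to 82.4% in HHIPL1 and GALNT10. GALNT10 held 4 GC-box matches, 2 of which overlap, and 46 CpG dinucleotides. FOS, an immediate-early transcription factor gene, was the only stretch of the 7 with a TATA match, and LSR had no match to any motif searched. A match is a string of letters and no evidence of binding.

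At those loci POLR3C was found together with POLR3G and acetylation, and without a POLR3A region nearby. The region at PRKCI, which encodes an atypical protein kinase C, had the highest -log10 q of all 500 (70.5) with a fold enrichment of 7.59, the ratio of signal over background that the authors' peak caller reported. The R5020 POLR3C list held a region of fold 7.33 there, and the nearest POLR3A region was 449119 bp away. The widest region of all spanned 2111 bp between EIF3B and SNX8 with a fold of 9.16, the highest of the 500, and 7.56 in the R5020 list. At PMVK, a mevalonate pathway kinase gene, the POLR3C fold was 8.70 in vehicle and 5.83 in the R5020 list, and the R5020 lists alone held a PR region (fold 34.5) and a Maf1 region (fold 15.9). FOS had POLR3C folds of 6.57 and 7.15 in the vehicle and R5020 lists and a PR region in the R5020 list only (fold 6.63). The promoter that GIT2 and ANKRD13A share (POLR3C fold 8.90) and that of GALNT10 (7.66) had a vehicle POLR3G region but no R5020 POLR3G region, and no Maf1 region in either treatment. The only member among the 12 outside any gene lay on the X chromosome, 11334 bp from SPACA5, with H3K27Ac and POLR3G but neither PR nor Maf1. PRDM10, FRAT1, HHIPL1 and LSR made up the rest of the promoters, and the twelfth was a U3 gene, SNORD3A, treated below. Each of the 12 overlapped an R5020 POLR3C region, a vehicle POLR3G region and H3K27Ac regions of both treatments.

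The 500 regions without POLR3A were not weaker POLR3C calls than the 166 with it. Their fold ran from 1.41 to 9.16 with a median of 3.40, against 3.31 for the 166. The median -log10 q was 7.54 against 7.59, and the median width 299.5 bp against 304. Because these are the values of the list the rule was applied to, they are given with no test. The boundary of the rule was sharp at few places. Only 5 regions had a POLR3A region within 100 bp and 38 (7.6%) within 1 kb, and the median distance was 584260 bp. The closest was a region of the REXO1L array on chromosome 8 (chr8:85756360-85756712) at 2 bp. It was followed by a promoter region of MROH8 (chr20:37178822-37179295, fold 6.02) at 6 bp and a region on chromosome 1 (chr1:144104239-144104423) at 7 bp. Just on the other side, the POLR3C regions with the fewest bases shared with POLR3A shared 54 and 59 bases in the same REXO1L array and 85 bases on chromosome 20. A missing POLR3A region is a missing call, and the depth behind the calls is unknown.

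None of the 500 lay within 200 bp of a polymerase III gene. The genes examined were 421 nuclear tRNA genes, 17 5S genes and 20 others such as U6, 7SK, RMRP and the Y and vault RNAs. By contrast 107 of the 166 regions with POLR3A (64.5%) lay there, a difference of -64.5 percentage points (95% Newcombe interval -71.3 to -56.9), beside a background of 16.1% over all 666. Extending the distance to 1 kb brought in 7 of the 500 (1.4%). Brf1 followed the same line. In vehicle, 6 of the 500 (1.2%, 95% Wilson interval 0.551 to 2.59) overlapped a Brf1 region, against 65.7% of the regions with POLR3A and 17.3% of all 666. In R5020 the counts were 35 of 500 (7%, 5.08 to 9.58) against 84.9%, with 26.4% over all. The differences were -64.5 points (-71.3 to -56.8) and -77.9 points (-83.0 to -71.2). These intervals, like all others here, cover the counting of regions only, and neighbouring regions are not independent.

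**Figure D1:**
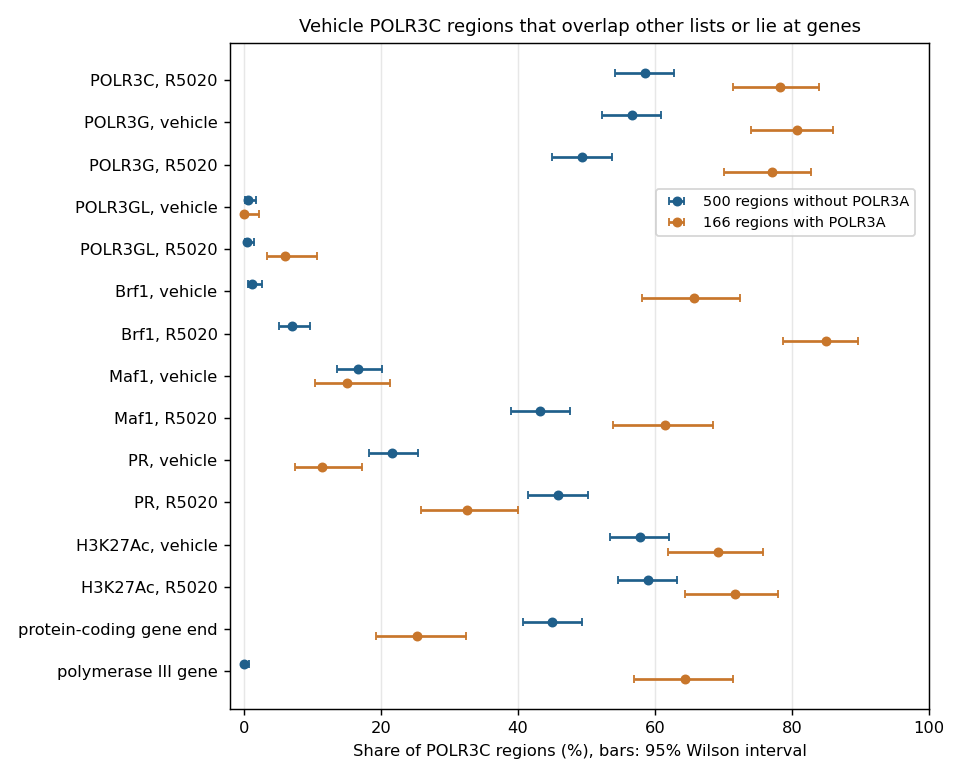
Share of vehicle POLR3C regions (x axis, percent) that overlap each peak list by at least 1 base, lie within 1 kb of a protein-coding gene end or within 200 bp of a polymerase III gene (y axis). Blue points stand for the 500 regions without POLR3A, orange for the 166 with it, and bars for 95% Wilson intervals; Brf1 separates them most (1.2% against 65.7% in vehicle), and PR is higher without POLR3A (21.6% against 11.4%).

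POLR3G, a paralog that can pair with POLR3C, was called at more of these regions than Brf1 was, but from a far longer list. The vehicle POLR3G list held 58423 regions on these chromosomes and the vehicle Brf1 list 370, so their shares cannot be compared directly. Vehicle POLR3G regions covered 283 of the 500 (56.6%, 52.2 to 60.9) and R5020 POLR3G regions 247 (49.4%, 45 to 53.8), with 238 covered in both. The regions with POLR3A were covered more often, at 80.7% and 77.1%, giving differences of -24.1 points (-31.0 to -16.2) and -27.7 points (-34.9 to -19.5). The background over all 666 was 62.6% and 56.3%. Where POLR3G was present without POLR3A, its fold had a median at percentile 90.2 of the vehicle POLR3G list, against 99.9 where POLR3A was present. The difference in share turned to 3.54 points (-3.53 to 9.54) in vehicle and 2.53 points (-4.58 to 8.60) in R5020 when an overlap had to cover 50% of both regions. POLR3GL, the other paralog, was rarely found at these regions: 3 of the 500 overlapped it in vehicle (0.6%, background 0.45%) and 2 in R5020 (0.4%, background 1.8%). That list was short, with 1104 regions in vehicle.

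PR went the other way. In vehicle, 108 of the 500 regions (21.6%, 18.2 to 25.4) overlapped a PR region, against 11.4% of those with POLR3A and 19.1% of all 666. In R5020, 229 did (45.8%, 41.5 to 50.2), against 32.5% and a background of 42.5%. The differences were 10.2 points (3.49 to 15.7) and 13.3 points (4.66 to 21.2). PR regions of both treatments covered 98 of the 500, R5020 PR regions alone 131, and vehicle PR regions alone 10. The PR list itself grew from 6662 to 173115 regions on these chromosomes. When only the 6662 R5020 regions with the highest -log10 q were used, 2.6% of the 500 overlapped one, fewer than in vehicle, so the direction between treatments turned with the length of the list. Where R5020 PR was found, its median fold stood at percentile 55.0 of its own list.

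Maf1, the repressor that binds polymerase III, overlapped 83 of the 500 in vehicle (16.6%, 13.6 to 20.1) and 15.1% of those with POLR3A, with 16.2% over all 666. The difference of 1.54 points had an interval from -5.37 to 7.37 and was within the counting error. In R5020 Maf1 overlapped 216 (43.2%, 38.9 to 47.6) against 61.4%, a difference of -18.2 points (-26.5 to -9.49), with 47.7% over all. Maf1 regions of both treatments covered 78, R5020 alone 138 and vehicle alone 5. With the 3048 highest R5020 Maf1 regions, as many as the vehicle list holds, the R5020 share was 8.6%, again below the vehicle share. Among regions with H3K27Ac, the R5020 Maf1 difference was -0.45 points (-9.94 to 9.67) and the vehicle difference 11.6 points (3.05 to 18.8), so neither comparison held its outcome.

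H3K27Ac covered 289 of the 500 in vehicle (57.8%, 53.4 to 62.1) and 295 in R5020 (59%, 54.6 to 63.2), and 285 in both. The regions with POLR3A were covered at 69.3% and 71.7%, and all 666 at 60.7% and 62.2%. The differences of -11.5 points (-19.3 to -2.95) and -12.7 points (-20.4 to -4.27) depended on regions far from genes. Without regions over 100 kb from any gene they were -3.47 points (-11.2 to 5.16) and -4.68 points (-12.2 to 3.74).

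The 500 fell into groups of quite different make-up, and the split was chosen after the values had been seen. A region was called acetylated if it overlapped H3K27Ac in either treatment. There were 299 acetylated regions (59.8%) and 201 without the mark. Acetylated regions had a median POLR3C fold of 4.33, against 2.17 for the others. POLR3G was called at 90.3% of the acetylated regions in vehicle and at 6.47% of the others. R5020 PR was called at 76.3% and 0.498%, and R5020 Maf1 at 66.2% and 8.96%. POLR3C itself was called again in the R5020 list at 79.9% and 26.9%. Fold and these marks moved together: among the 167 regions with a fold of 4.18 or more, 97.6% were acetylated and 79.6% lay at a gene end, against 16.6% and 8.28% of the 169 with a fold of up to 2.56. These counts describe the list, and how far fold sets the chance of an overlap was not tested.

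**Figure D2:**
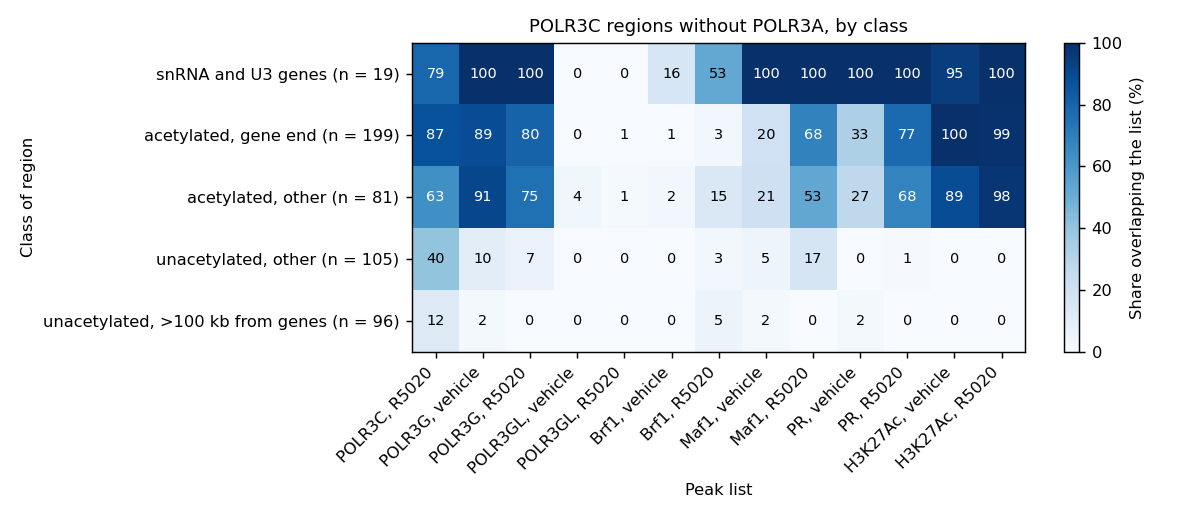
Share of POLR3C regions without POLR3A (colour and number, percent) that overlap each peak list (x axis), for 5 classes of region (y axis, with the number of regions). POLR3G covers all 19 regions at snRNA and U3 genes and 89% of the 199 acetylated gene ends in vehicle; in the unacetylated classes no list other than POLR3C goes above 17.1%.

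Acetylated ends of protein-coding genes were the largest class, with 199 regions. Over all 500, 225 (45%, 40.7 to 49.4) lay within 1 kb of a protein-coding gene end, against 25.3% of the regions with POLR3A, a difference of 19.7 points (11.4 to 27.1) beside a background of 40.1%. Of the 225, 81 (36%) lay within 1 kb of the ends of at least 2 such genes, as at EIF3B and SNX8; of the 42 regions with POLR3A at gene ends, 4 did (9.52%). The 225 regions reached 296 genes, which is 1.49% of the 19821 protein-coding genes. The 199 acetylated regions had a median fold of 4.67, and 173 of them (86.9%) overlapped an R5020 POLR3C region. The promoter table gives strand but holds no chromosome 8, so start sites were measured for 445 of the 500. A summit within 1 kb of a start site was found for 190 of these (42.7%, 38.2 to 47.3), against 26 of 150 regions with POLR3A (17.3%, 12.1 to 24.2). The summits sat just upstream: the median was -116.5 bp, with quartiles of -197 and -14.5 bp. Of the 190, 117 (61.6%) fell in the 250 bases before the start, and 46 at or after it. The promoters printed above were chosen for a summit in those 250 bases. The 26 summits with POLR3A had a median of -305 bp, and 5 of them (19.2%) were in the 250 bases before the start.

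**Figure D3:**
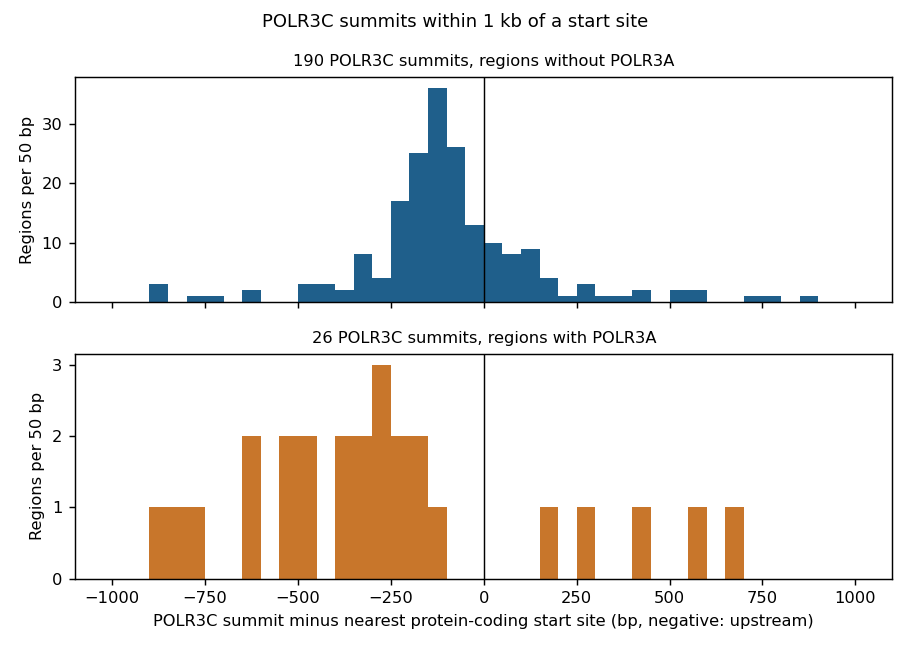
Number of POLR3C summits per 50 bp (y axis) by distance from the nearest protein-coding start site (x axis, bp, negative upstream), for regions without POLR3A (top, 190 summits) and with POLR3A (bottom, 26 summits). The upper distribution peaks just before the start site (median -116.5 bp); the lower one is spread further upstream (median -305 bp). The vertical scales differ.

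Promoters under these regions differed from other acetylated promoters in what else was called there. There were 259 RefSeq promoter windows of 300 bp (212 genes) under a region without POLR3A, and 254 of them overlapped a vehicle H3K27Ac region. The comparison, chosen after the values had been seen, was with 13563 windows that had vehicle H3K27Ac and no POLR3C. Windows of a gene can share a region, so the intervals are too narrow. Vehicle POLR3G overlapped 88.6% (84.1 to 91.9) of the 254 and 60.5% of the others. R5020 PR overlapped 77.2% (71.6 to 81.9) against 64.7%, and vehicle PR 26.4% (21.3 to 32.1) against 14.9%. R5020 Maf1 overlapped 62.2% (56.1 to 67.9) against 42.8%, and Brf1 2.36% (1.09 to 5.06) against 0.752%. The acetylation itself ranked higher under POLR3C, with a median at percentile 95.8 of the H3K27Ac folds against 92.1, and its part in the other shares was not tested.

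In sequence, the 259 windows had a median GC content of 63.7%, against 62.3% over all 22132 protein-coding promoter windows and 66% over the 13563 acetylated ones. Their median number of CpG dinucleotides was 26 (lower quartile 19), against 21 (7) over all windows and 27 (18) over the acetylated ones. A GC box was found in 60.2% (54.2 to 66.0), against 56.3% of all windows and 71.8% of the acetylated ones. CCAAT was found in 32.0% (26.7 to 37.96) against 34.6% and 34.2%. TATAAA was found in 8.11% (5.36 to 12.1) against 9.46% and 4.80%. The ETS string CCGGAAG was found in 14.7% against 12.8% and 18.6%, and the E box CACGTG in 9.65% against 8.34% and 9.93%. The AP-1 string TGACTCA occurred in 1 window (0.386%, 0.0682 to 2.15), against 4.01% and 2.81%. The half-element TGTTCT occurred in 8.11%, against 11.7% of all and 8.05% of acetylated windows. The cyclic AMP element TGACGTCA occurred in 3.86% against 2.26% and 2.92%. The NRF1 string occurred in 9.27%, against 7.41% of all and 10.9% of acetylated windows. The YY1 string occurred in 1.93% against 1.18% and 1.88%. Of the internal promoter boxes of tRNA genes, the B box occurred in none of the 259, against 0.176% of all and 0.236% of acetylated windows. The A box occurred in 1 (0.386%), against 0.330% and 0.347%. All motifs were searched on both strands of the 300 bp window; strings of different names can overlap.

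Each of the protein synthesis, histone, polymerase III machinery and luminal lists was reached at 5 genes or fewer. The shares of ribosomal protein, histone and machinery genes were above that of all protein-coding genes, but they rest on few genes and were not tested. Of 87 ribosomal protein genes, 5 had such a region within 1 kb of an end (5.75%, against 1.49% of all protein-coding genes): RPL12, RPL19, RPL23A, RPL35 and RPL7L1. Their POLR3C folds ran from 3.12 at RPL23A to 5.58 at RPL19. All had POLR3G and H3K27Ac in both treatments, and RPL19 and RPL7L1 had POLR3C in the R5020 list. Of 94 histone genes, 4 were reached (4.26%) by 2 regions: H2AC20, H2AC21 and H2BC21 share the region chr1:149886852-149887093 (fold 3.30), and H4C14 has its own (fold 3.70). Both carried PR and Maf1 in both treatments, and neither was in the R5020 POLR3C list. Of 37 genes of the polymerase III machinery only POLR2L, a small subunit common to the nuclear polymerases, was reached (2.70%, fold 3.67). None of 35 aminoacyl-tRNA synthetase genes and none of 29 luminal and progestin-responsive genes, among them FKBP5, ZBTB16 and PGR, were reached. At the 1.49% of all protein-coding genes, lists this short can also give none.

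snRNA and U3 genes formed a small class. Within 200 bp of such a gene lay 19 of the 500 regions (3.8%, 2.45 to 5.86) and 1 of the 166 with POLR3A (0.602%), beside 3% of all 666. The class was gathered after the values had been seen. All 19 overlapped POLR3G, PR and Maf1 regions in both treatments, and 18 overlapped H3K27Ac in vehicle and 19 in R5020. This profile was not particular to genes with such a region. Of 16 listed polymerase II snRNA genes, 5 had such a region, and 15 had vehicle POLR3G, PR and Maf1. Of all 127 snRNA and U3 genes examined, 19 had such a region. Vehicle POLR3G, PR and Maf1 lay at 51, 48 and 47 of the 127. Where vehicle PR was called at these genes, its median fold stood at percentile 92.3 of the vehicle PR list, against 38.6 at the 65 acetylated gene ends with vehicle PR. Vehicle Maf1 stood at percentile 95.9 against 63.0. POLR3C itself had a median fold of 2.96, below the 4.67 of the acetylated gene ends.

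RNU1-1, RNU1-2, RNU1-3 and RNU1-4, which encode the U1 RNA that recognises the 5′ splice site, all had a POLR3C region without POLR3A. The vehicle POLR3C folds were 3.57, 2.72, 5.15 and 3.50, and the R5020 folds 4.33, 3.19, 4.74 and 2.89. Vehicle PR folds there ran from 11.1 to 12.7 and vehicle Maf1 folds from 12.0 to 15.9, and no Brf1 region lay within 200 bp in either treatment. Of 17 variant U1 genes (RNVU1) in the table, 1 had such a region, RNVU1-31 (fold 3.99). The snRNA gene LOC124904613 on the same chromosome had POLR3C at 3.44 and 3.77 in the vehicle and R5020 lists, and Brf1 at 3.93 and 5.86. RNVU1-7 had POLR3C at 3.11 with POLR3A within 200 bp (5.23 in vehicle, 3.92 in R5020).

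The U2 array of chromosome 17, a tandem repeat of the gene for the RNA that pairs with the branch point, held 18 of the 500 in a stretch from 43235052 to 43300313. All 18 were acetylated and had vehicle POLR3G. Of 13 snRNA genes in the array, 8 had a POLR3C region without POLR3A within 200 bp, with folds from 2.16 to 2.99, and the other 10 regions lay between the copies. Brf1 was called at 2 of the 13 genes in vehicle and 12 in R5020, and POLR3A at none in either treatment. RNU2-2 on chromosome 11, a U2 gene outside the array, had POLR3C at 2.56 in vehicle and 4.74 in the R5020 list. There PR had folds of 14.9 and 35.1 in vehicle and R5020. Copies of these genes are nearly identical, how reads that match several copies were placed is not given in the sources used here, and values of single copies are therefore uncertain.

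U3 genes held the strongest region of the class. SNORD3A (chr17:19188016-19188232) had a POLR3C fold of 7.89 in vehicle and 5.11 in the R5020 list. Its POLR3G folds were 10.6 and 10.3, its PR folds 13.4 and 23.5, and its Maf1 folds 14.8 and 34.0. A Brf1 region was called in R5020 only (fold 7.98), the highest Brf1 fold among the 500. SNORD3B-1 (3.40) and SNORD3B-2 (3.80) were the other U3 genes with a region. All 5 U3 genes of chromosome 17 had POLR3G, PR, Maf1 and H3K27Ac in both treatments and no POLR3A within 200 bp. Of 11 genes for U4, U5, U11, U12, U4atac and U7, 10 had vehicle PR, POLR3G and Maf1. In the vehicle POLR3C list only RNU5B-1 had a region (fold 2.87), and in the R5020 POLR3C list only RNU4-2 (fold 2.80). RNU5B-1 also had a POLR3A region within 200 bp of the gene (11.6 in vehicle), which did not overlap its POLR3C region.

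**Figure D4:**
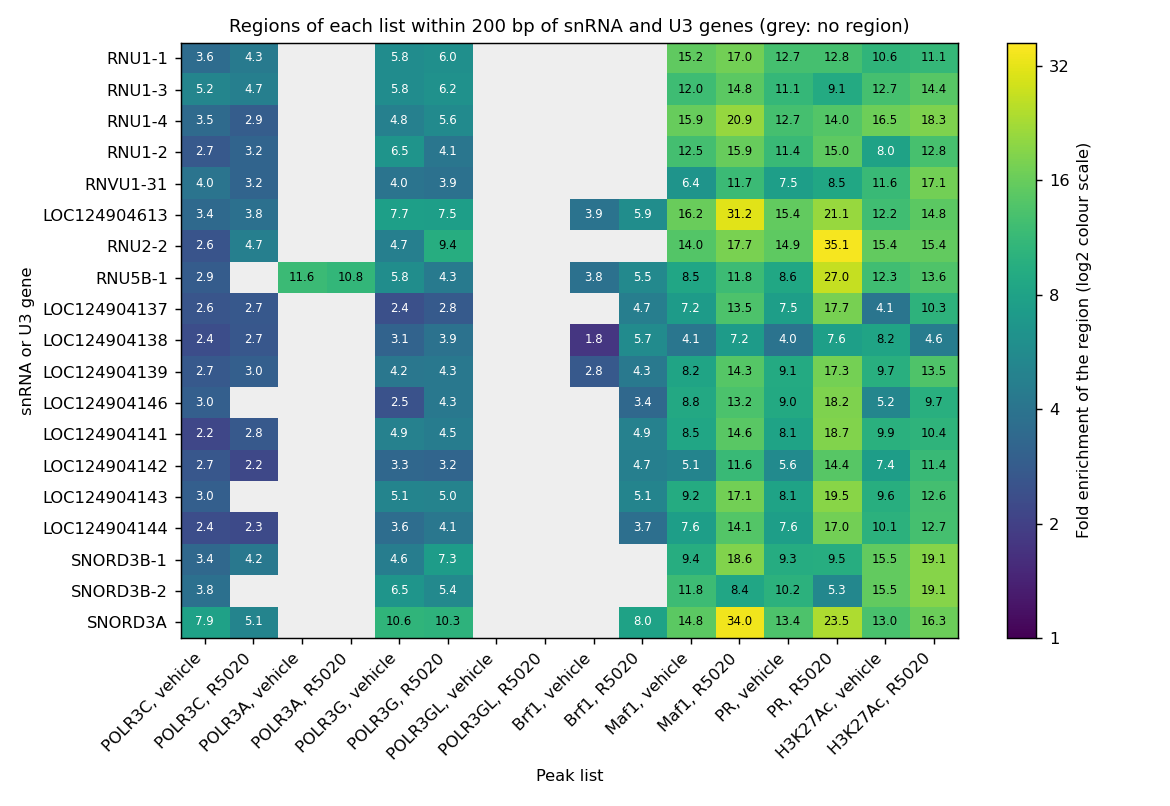
Fold enrichment (number and log2 colour scale) of the highest region of each list (x axis) within 200 bp of the 19 snRNA and U3 genes that had a POLR3C region without POLR3A (y axis); grey means that no region was called. POLR3G, Maf1 and PR fill every cell, POLR3A only RNU5B-1 and POLR3GL none; folds of different lists are not on one scale.

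Brf1 at regions without POLR3A was rare. The R5020 list gave 35 and the vehicle list 6, but with R5020 Brf1 regions limited to as many of the highest as the vehicle list holds, the R5020 share was 0.6%, below the 1.2% of vehicle, so the direction turned with the length of the list. Of the 36 regions with Brf1 in either treatment, 10 were at snRNA and U3 genes, 12 in other acetylated chromatin, 6 at acetylated gene ends and 8 in unacetylated chromatin. The R5020 Brf1 fold at these regions had a median of 3.44 and a highest value of 7.98, against a median of 60.5 where the POLR3C region carried POLR3A. After SNORD3A, the regions with Brf1 and the highest POLR3C -log10 q lay near the end of the X chromosome (chrX:156030419-156030688, fold 3.71), at LOC124904138 in the U2 array (2.35), in the centre of chromosome 1 (chr1:123101477-123101660, 2.09) and at MIR6125 (4.81). Regions within 100 kb of the outermost coordinate of a chromosome, counted after the values had been seen, numbered 11 on 8 chromosomes. All 11 without POLR3A were acetylated, had vehicle POLR3G and overlapped an R5020 POLR3C region, and 5 had Brf1. Their POLR3C folds ran from 2.19 to 4.61.

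Some stretches of the genome held many of the 500 regions. In the 3 windows of 2 Mb that held the most lay 76 (15.2%), 18 of them the acetylated regions of the U2 array. Whether the 500 gathered more than the POLR3C regions with POLR3A was not tested. These 3 windows, picked for holding the most of the 500, also held 16 of the 166 POLR3C regions with POLR3A. The first was chromosome 8 from 84 to 86 Mb with 37, and 34 of those lay within 10 kb of a REXO1L gene, between 85642995 and 85827929. Of these 34, none was acetylated or had vehicle POLR3G, and 11 overlapped an R5020 Maf1 region. Their median fold was 1.88, and 17 overlapped an R5020 POLR3C region. This array also held POLR3C regions that touched POLR3A: the window had 49 POLR3C regions in all. The other windows were a stretch of chromosome 10 between 40201567 and 41912432 and the U2 array. The chromosome 10 window held 21 of the 500, none of them acetylated, among 25 POLR3C regions in all. Further gene arrays were the USP17L genes of chromosome 4 (9 regions, 7 of them in the R5020 list), the TAF11L genes of chromosome 5 (6, of which 2) and MUC12 on chromosome 7 (4, of which 1). None of the regions in these 3 gene arrays was acetylated. The highest of the unacetylated regions by -log10 q, 24.3, lay 643 bp from USP17L24 (chr4:9324263-9324522, fold 3.30 in vehicle and 2.54 in the R5020 list).

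Of the 201 unacetylated regions, 96 lay over 100 kb from any gene in the table, on 14 chromosomes, the 21 of the chromosome 10 window among them. Chromosome 1 had 22 between 122168608 and 124745716, chromosome 10 had those 21 between 40201567 and 41912432, and chromosome 11 had 15 between 51097873 and 54259883. Chromosomes 7, 12 and 13 had 9, 8 and 6. Their median fold was 2.29 and their median width 204 bp. None overlapped R5020 PR, Maf1 or POLR3G, 2 each had vehicle POLR3G, vehicle PR and vehicle Maf1, and 5 had R5020 Brf1. Only 12 (12.5%) overlapped an R5020 POLR3C region. The 5 regions with the highest -log10 q among those with no R5020 POLR3C region all belonged here, with -log10 q from 19.1 to 23.4. At chr10:40484729-40484938 the fold was 6.10, and at the other 4 it ran from 2.41 to 2.82.

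**Figure D5:**
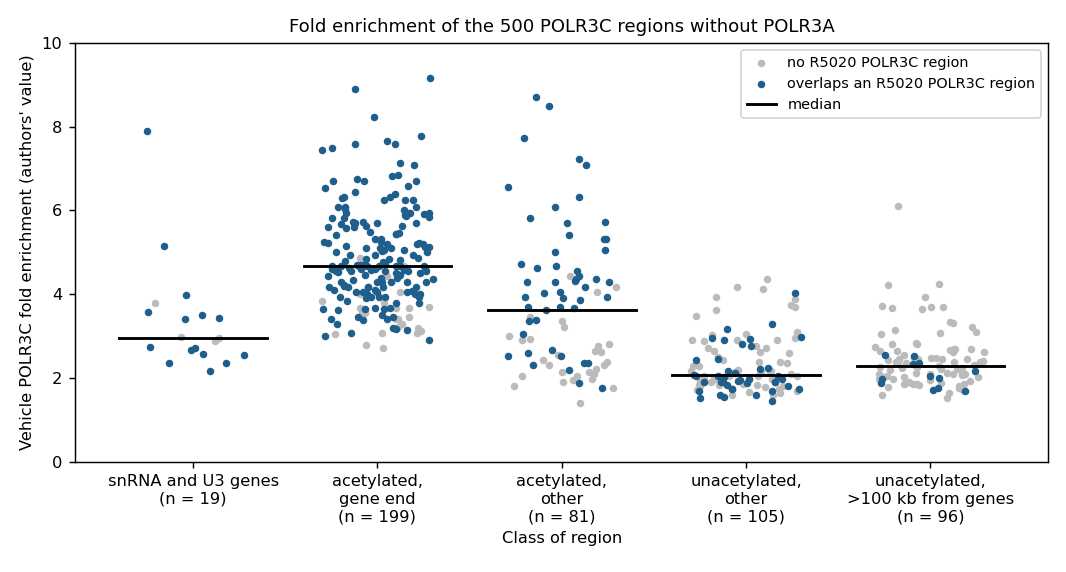
Vehicle POLR3C fold enrichment (y axis) of each of the 500 regions, by class (x axis, with the number of regions); blue points overlap an R5020 POLR3C region, grey points do not, and black lines are medians. Acetylated gene ends have a median of 4.67 and are mostly blue; regions over 100 kb from genes have a median of 2.29 and are mostly grey.

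Across the 2 POLR3C lists, 293 of the 500 (58.6%, 54.2 to 62.8) overlapped an R5020 POLR3C region, against 78.3% of the regions with POLR3A and 63.5% of all 666. The difference was -19.7 points (-26.8 to -11.6), and among acetylated regions it was -4.62 points (-11.9 to 3.88). The 293 had a median vehicle fold of 4.31 and the 207 others 2.46. Over the 293, vehicle and R5020 folds had a Spearman rho of 0.80 across regions, which share their caller. POLR3C and POLR3G folds in vehicle had a rho of 0.19 over 283 regions, and POLR3C and H3K27Ac folds 0.26 over 289. With an ethanol tag on 2 of the 3 libraries titled R5020, repeated sampling and treatment cannot be told apart here.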

How the data were processed

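Chromatin immunoprecipitation libraries of T47D cells were represented by 16 peak lists, which the authors deposited without a header, with 1 list per antibody and treatment and with 3 labelled libraries behind each. Cutadapt, Bowtie2, MACS2 and the build hg38 are named in the submitters' processing notes. How replicates were pooled, the control libraries, the cut-offs and the treatment of multiply mapping reads are not given in the sources used here. For each region the authors deposited a score, a fold enrichment (a ratio over background), a -log10 q-value and the summit position. These are the caller's own values and served only to describe, rank or filter regions within a list. The lists hold no reads, so depth is unknown, and the lowest -log10 q in any list was 1.30.

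Regions on chromosomes 1 to 22 and X were used, which left out 40 of the 706 vehicle POLR3C rows. Overlap meant at least 1 shared base. Distances counted from base to base, so touching regions are 1 bp apart. Shares have 95% Wilson intervals and differences Newcombe intervals. No p-value is given, because no list carries replicates. Genes came from the RefSeq table of GRCh38.p14 (58419 genes kept, 679 dropped whose coordinates restart within a chromosome's rows), matched by symbol. Promoter windows came from the RefSeq promoter table (22132 of 35116 used: protein-coding genes, on the gene's chromosome and span). The overlap and interval code was tested on simulated data. Named regions were the 12 with the highest -log10 q, the 5 highest without R5020 POLR3C, with Brf1 or without H3K27Ac, the 3 widest, the 3 nearest each side of the rule, the 3 fullest windows, and those at listed genes. The regions, gene lists and classes were chosen with earlier results of these data known. Alternatives tried were a 50% overlap, -log10 q of at least 5, a 1 kb gap from POLR3A, equal list lengths, other distances to genes, and leaving out the fullest window. Added after seeing the data were leaving out regions over 100 kb from genes and keeping acetylated regions only. Python 3.11.15, numpy 2.4.6, pandas 2.3.3, scipy 1.17.1 and matplotlib 3.10.9 were used.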

Additional observations from a re-analysis of the deposited data

How the results depend on the processing

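No paired analysis was possible because each list pools its libraries and carries no replicate, and leaving out a replicate was not possible for the same reason. Differences between the 500 regions without POLR3A and the 166 with it were unchanged in 81 of 93 alternatives. Unchanged means the same direction, and an interval that excluded or included 0 as the main one did. The vehicle Maf1 and vehicle POLR3GL differences had main intervals that included 0, so their unchanged settings show no difference. The H3K27Ac difference no longer excluded 0 in vehicle without POLR3A neighbours within 1 kb (-7.81 points), for POLR3C rows with -log10 q of at least 5 (-4.74) and without regions over 100 kb from genes (-3.47). In R5020 that held for the last 2 settings (-6.37 and -4.68). The POLR3G difference reversed with 50% overlap (3.54 in vehicle, 2.53 in R5020). The POLR3GL difference in R5020 became -1.005 with POLR3GL rows of -log10 q of at least 5, and with Maf1 rows so restricted the vehicle Maf1 difference became 6.37 and excluded 0. Among acetylated regions the difference in retention was -4.62, the R5020 Maf1 difference -0.446 and the vehicle Maf1 difference 11.6, the last excluding 0.

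Shares of the 500 moved beyond their interval in 51 of 100 alternatives. The number of regions stayed within 1.5 times of 500 throughout. With 50% overlap, shares fell to 49.4% for retention in the R5020 POLR3C list, and for vehicle and R5020 to 4.2% and 4.2% for H3K27Ac, 19.2% and 18.8% for POLR3G, 10.4% and 16.4% for PR, and 6.8% and 18% for Maf1, with 3.2% for R5020 Brf1. With the other list at -log10 q of at least 5 they were 48% for retention, 45.2% and 33% for POLR3G, 15% and 40.6% for PR, 13% and 31.2% for Maf1, and 0.2% and 5% for Brf1. For POLR3C rows of -log10 q of at least 5 they were 71.4% for retention, 68.0% and 68.8% for H3K27Ac, 65.4% and 56.9% for POLR3G, 53.8% for R5020 PR, 49.0% for R5020 Maf1 and 54.7% for gene ends. Without the fullest window they were 62.4% and 63.7% for H3K27Ac and 61.1% for vehicle POLR3G. Without regions over 100 kb from genes they were 69.6% for retention, 71.5% and 73.0% for H3K27Ac, 69.6% and 61.1% for POLR3G, 26.2% and 56.7% for PR, 53.5% for R5020 Maf1 and 55.7% for gene ends. Among acetylated regions they were 79.9% for retention, 90.3% and 80.3% for POLR3G, 35.5% and 76.3% for PR, and 25.4% and 66.2% for Maf1. With lists of equal length the R5020 shares were 2.6% for PR, 8.6% for Maf1 and 0.6% for Brf1. Gene ends within 5 kb gave 49.8%, and polymerase III genes within 1 kb gave 1.4%. The causes were not tested beyond what each setting removes.

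Depth is unknown, so a missing region is a missing call, and list lengths from 370 to 173115 regions set how easily an overlap arises. The R5020 POLR3C, POLR3G and POLR3GL lists rest on titles that conflict with treatment tags. Near-identical copies in the U1, U2, REXO1L and USP17L arrays and sequence far from genes carry an unknown share of multiply mapping reads.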
